A study of Caenorhabditis elegans with 14 samples.

Results

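This account concerns 10 genes of the RNA interference (RNAi) machinery of Caenorhabditis elegans: the Argonautes *rde-1*, *alg-1*, *alg-2*, *csr-1*, *wago-1*, *hrde-1* and *prg-1*, the Dicer gene *dcr-1*, its partner *rde-4* and the dsRNA channel gene *sid-1*. They were chosen by name from the deposited tables, which list 12483 genes in either strain, and all 10 were listed in both. Whole hermaphrodites raised at 20 °C and collected on day 6 of adulthood were sequenced with CEL-Seq2, whose reads come from the 3′ ends of polyadenylated transcripts. The treated animals ate HT115 bacteria making dsRNA against *anc-1*, which encodes a large nesprin of the nuclear envelope, and their controls ate the same bacteria with the empty vector (EV). Each treatment was given to 4 replicates of AM140, a strain whose body wall muscle makes 35 glutamine repeats fused to YFP from the *unc-54* promoter (unc-54p::Q35-YFP, hereafter polyQ35-YFP worms), and to 3 replicates of wild-type N2 worms. All groups thus ate bacteria of the same strain, and a difference between *anc-1* RNAi and EV is a difference between dsRNA against 1 worm gene and a control vector. Progeny were washed away daily, but adults can still carry a germline and embryos.

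In feeding RNAi, dsRNA is taken up from the gut and passes between cells through SID-1. RDE-4 binds it and Dicer cuts it into primary siRNAs, which the Argonaute RDE-1 loads. RNA-dependent RNA polymerases then make secondary siRNAs, which are carried by worm-specific Argonautes such as WAGO-1 in germline granules and HRDE-1 in germline nuclei. ALG-1 and ALG-2 carry microRNAs, CSR-1 carries siRNAs that match germline-expressed genes, and PRG-1 is the Piwi protein of germline piRNAs. Dicer also serves the microRNA pathway, so these genes share enzymes as well as tissues.

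The deposited values are read counts divided by a size factor of each sample, termed normalized reads here, and they were set separately for each strain, so levels of the strains stand side by side without a test. Reads on listed genes ranged from 5718349 to 8414290 in polyQ35-YFP *anc-1* RNAi samples, from 5905938 to 11563506 in polyQ35-YFP EV samples, from 4934531 to 7227357 in wild-type *anc-1* RNAi samples and from 5694086 to 10513485 in wild-type EV samples. The target fell in every pair of samples: *anc-1* had 37.5 ± 14.2 normalized reads under *anc-1* RNAi and 346 ± 48.1 under EV in polyQ35-YFP worms (SD, n = 4 each), and 51.1 ± 15.2 under *anc-1* RNAi and 315 ± 29.8 under EV in wild-type worms (SD, n = 3 each). A gene was called when limma gave a Benjamini-Hochberg adjusted p below 0.05 over all genes of its strain, and fold changes divide *anc-1* RNAi by EV. In polyQ35-YFP worms, EV replicates 2 and 4 stood apart from EV replicates 1 and 3 in germline genes. The geometric mean of 20 germline genes was 473, 462, 486 and 587 normalized reads in *anc-1* RNAi replicates 1 to 4, against 356, 488, 382 and 611 in EV replicates 1 to 4. In wild-type worms it was 357, 398 and 351 under *anc-1* RNAi and 381, 371 and 347 under EV.

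Of the 10 genes, 0 were called in polyQ35-YFP worms, where 2.24% of all genes tested were called (limma). By unadjusted p, 2 of the 10 (*alg-2* and *alg-1*) lay under 0.05, against 15.5% of all genes. On the recovered reads edgeR called 0 of the 10 (background 2.05%) and DESeq2 called 1, *alg-2* (background 4.88%). In wild-type worms 1 of 10 genes was called, *alg-2*, which fell, and the background was 13.6% of all genes in either direction and 6.13% downward. By unadjusted p, 3 of the 10 (*alg-2*, *csr-1* and *dcr-1*) lay under 0.05 there, against 27.6% of all genes, and edgeR and DESeq2 each called 2 of the 10, *alg-2* and *csr-1* (backgrounds 13.8% and 12.7%). These counts of 10 genes were not far from the background. Since each repeat held both treatments, per the series' design, the replicate number was also fitted as a block. With it, 2 genes were called in polyQ35-YFP worms (*alg-1* and *alg-2*, both lower; background 8.13%) and 2 in wild-type worms (*alg-2*, lower, and *csr-1*, higher; background 16.3%). The median log2 fold change of the 10 genes was 0.081 in polyQ35-YFP worms, against 0.034 over all genes, and −0.080 in wild-type worms, against 0.0035 over all genes.

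**Figure D1:**
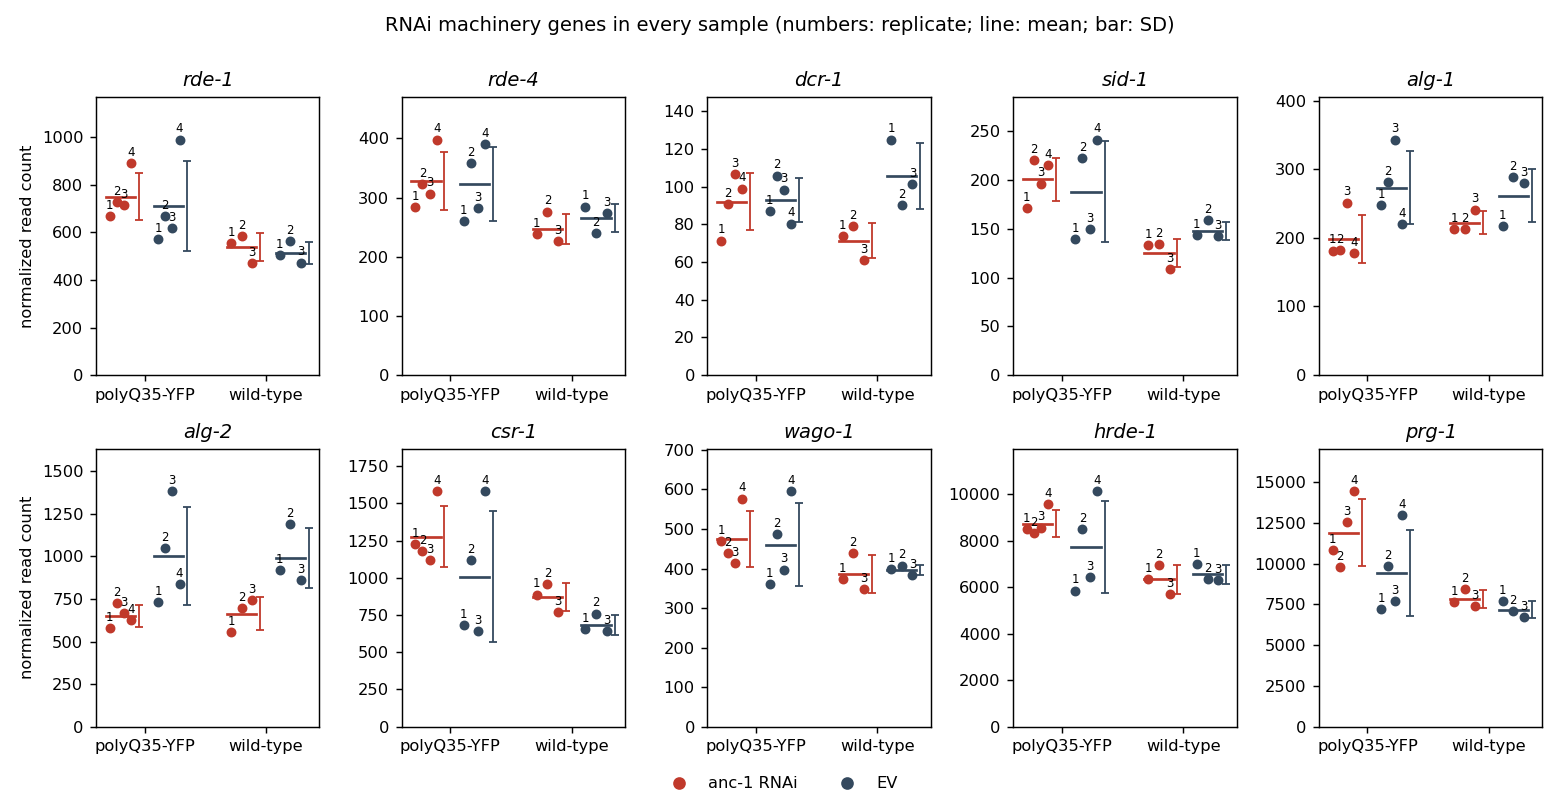
Normalized read count (vertical axes, from 0) of each of the 10 RNAi machinery genes in every sample, with *anc-1* RNAi samples in red to the left of EV samples in blue within each strain, digits giving replicate numbers, horizontal lines the means and side bars the SD. The *alg-2* points under *anc-1* RNAi lie below all EV points in both strains, and the *csr-1* points of wild-type worms lie above all EV points of that strain.

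Per kilobase of annotated exon, the germline Argonautes *prg-1* and *hrde-1* were far above the other 8 genes in all 4 groups. The level of *prg-1* was 4464 ± 766 normalized reads per kilobase in polyQ35-YFP worms under *anc-1* RNAi and 3533 ± 987 under EV, and 2933 ± 211 in wild-type worms under *anc-1* RNAi and 2689 ± 192 under EV. The level of *hrde-1* was 2469 ± 161 and 2185 ± 556 per kilobase in the same polyQ35-YFP groups, and 1791 ± 178 and 1852 ± 112 in the same wild-type groups. After these came *csr-1*, *rde-4*, *alg-2*, *rde-1* and *wago-1*, in an order that varied between groups, then *sid-1*, *alg-1* and, lowest, *dcr-1*. The *dcr-1* level was 15.6 ± 2.57 per kilobase under *anc-1* RNAi and 15.8 ± 1.94 under EV in polyQ35-YFP worms, and 12.13 ± 1.55 and 17.96 ± 3.01 in wild-type worms. Ranges of *csr-1* and *rde-4* overlapped in both polyQ35-YFP groups and in wild-type worms, whereas the step from *prg-1* to *hrde-1* did not overlap in 3 of the 4 groups (the polyQ35-YFP EV group excepted). The steps from *hrde-1* to the next gene, from *wago-1* to *sid-1*, from *sid-1* to *alg-1* and from *alg-1* to *dcr-1* did not overlap within any group. Since reads come from the 3′ end, division by length lowers long transcripts such as that of *dcr-1* (5883 exonic bases) and *alg-1* (6696) relative to short ones such as that of *rde-4* (1204), so this order depends on the scale.

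**Figure D2:**
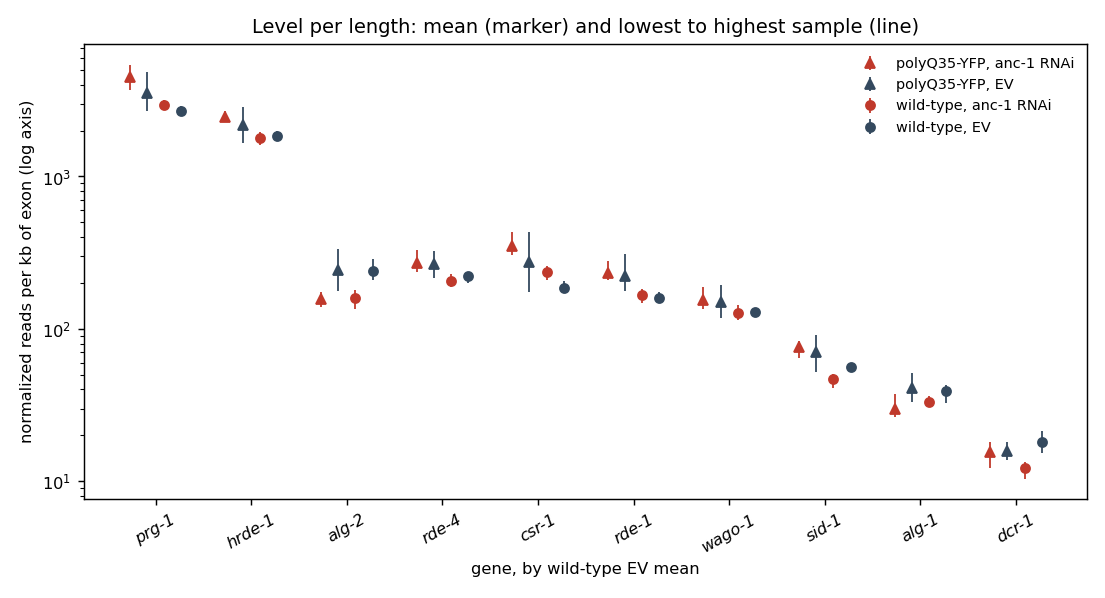
Normalized reads per kilobase of annotated exon (vertical log axis) for the 10 genes, ordered by their wild-type EV mean, with markers for the means of the 4 groups and lines from the lowest to the highest sample. Levels run from 12.13 per kilobase for *dcr-1* under *anc-1* RNAi in wild-type worms to 4464 for *prg-1* in polyQ35-YFP worms given *anc-1* RNAi.

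The microRNA Argonaute *alg-2* (WBGene00000106, chromosome II, 873176 to 878954, plus strand) was the only one of the 10 genes called in either strain. In polyQ35-YFP worms it had 579, 727, 665 and 627 normalized reads in *anc-1* RNAi replicates 1 to 4, against 733, 1050.2, 1384 and 838 in EV replicates 1 to 4. In wild-type worms it had 557, 695 and 741 under *anc-1* RNAi, against 919, 1190.0 and 862 under EV. Every *anc-1* RNAi sample was thus below every EV sample in both strains. In this direction, 5.94% of genes were separated in polyQ35-YFP worms and 15.8% in wild-type worms (9.33% and 31.7% in either direction). The share of genes separated in both strains at once was not counted. In polyQ35-YFP worms the log2 fold change was -0.59 (SE 0.18, adjusted p = 0.120) and *alg-2* was not called, but it was with the replicate block (limma, adjusted p = 0.0114), in DESeq2 (0.0418) and without EV replicate 4 (0.0361). It was not called without both number 4 samples (0.0572). In wild-type worms the log2 fold change was -0.57 (SE 0.14, adjusted p = 0.00846), a level 0.673 times that of EV, and *alg-2* was called. The wild-type call was lost without EV replicate 2, the highest sample (limma, log2 fold change -0.43, adjusted p = 0.0726), and over all 15 alternatives its adjusted p ranged from 0.00145 to 0.146.

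Its paralog *alg-1* (WBGene00000105, chromosome X, 13949142 to 13956256, plus strand) was lower under *anc-1* RNAi in all 4 same-number pairs of polyQ35-YFP worms and in all 3 of wild-type worms. The values were 181, 182, 251 and 178 normalized reads under *anc-1* RNAi and 248, 282, 343 and 220.4 under EV in polyQ35-YFP worms. Here 3 of the 4 *anc-1* RNAi samples lay under all EV samples, and replicate 3 lay among them. In wild-type worms *alg-1* had 213, 213 and 241 normalized reads under *anc-1* RNAi and 217, 288 and 280.1 under EV, and the groups overlapped. The log2 fold change was -0.46 (SE 0.18, adjusted p = 0.229) in polyQ35-YFP worms, called only with the block (limma, adjusted p = 0.0433), and -0.23 (SE 0.15, adjusted p = 0.343) in wild-type worms. The genes *alg-1* and *alg-2* are near copies, so reads could be split between them in counting, and a noncoding gene (T07D3.11) lies opposite *alg-2*. The sources do not say whether reads were counted by strand.

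The Argonaute *csr-1* (WBGene00017641, chromosome IV, 7957580 to 7962121, plus strand), which acts in the germline and in chromosome segregation, had the largest positive fold change of the 10 genes in both strains. In polyQ35-YFP worms *csr-1* had 1228, 1178, 1120.3 and 1580.2 normalized reads in *anc-1* RNAi replicates 1 to 4, against 682, 1121, 644 and 1582 in EV replicates 1 to 4. The *anc-1* RNAi samples were close to each other, apart from the higher replicate 4, while EV replicates 2 and 4 reached the *anc-1* RNAi range and EV replicates 1 and 3 did not. The log2 fold change was 0.43 (SE 0.24, adjusted p = 0.437), and without EV replicate 4 it was 0.68 (limma, adjusted p = 0.0339, with 6.9% of all genes called). Without both number 4 samples it was 0.57 (adjusted p = 0.0700). Wild-type worms had 886, 955 and 772 normalized reads under *anc-1* RNAi, against 653, 759.6 and 640.5 under EV, with no overlap. The log2 fold change was 0.35 (SE 0.12, adjusted p = 0.0565), just short of the call. It was called with the replicate block (limma, adjusted p = 0.0256), in edgeR (0.0478), in DESeq2 (0.0446) and without *anc-1* RNAi replicate 3 (0.0348). Its adjusted p ranged from 0.0256 to 0.214 over the 15 alternatives, of which 6 called it. A same-strand gene, *frpr-10*, overlaps *csr-1* in the annotation.

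**Figure D3:**
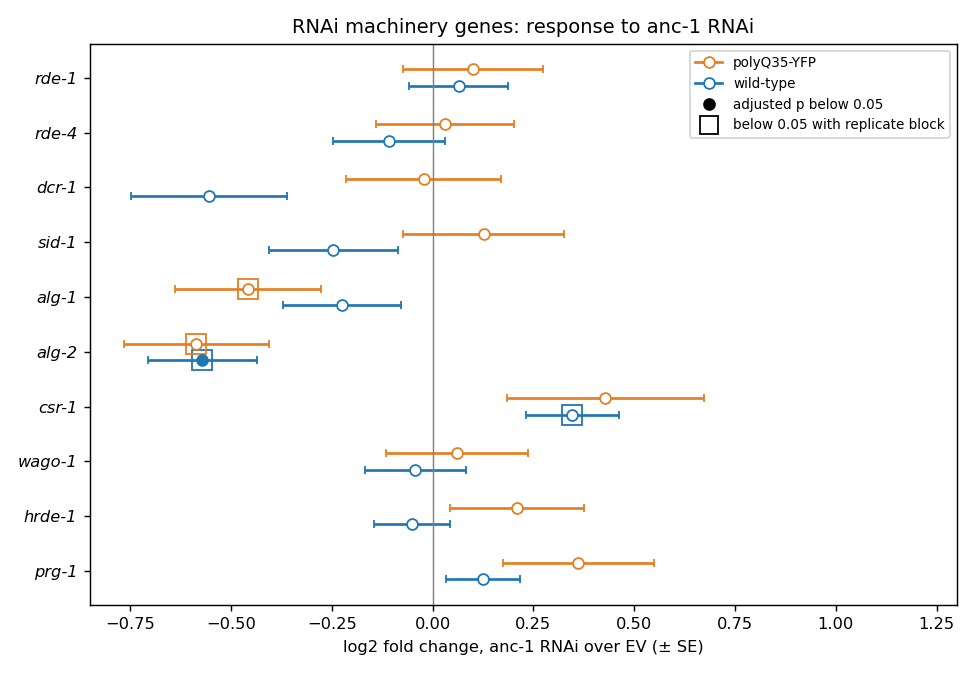
Log2 fold change of *anc-1* RNAi over EV (horizontal axis, bars ± SE) for the 10 genes, polyQ35-YFP worms in orange above wild-type worms in blue, with filled circles called at an adjusted p below 0.05 and squares called with the replicate block. Only *alg-2* in wild-type worms is filled, and squares mark *alg-2* in both strains, *alg-1* in polyQ35-YFP worms and *csr-1* in wild-type worms.

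The genes *dcr-1*, *sid-1*, *rde-4* and *rde-1*, which act in the first steps of feeding RNAi, were not called in either strain (background 2.24% in polyQ35-YFP and 13.6% in wild-type worms). The Dicer gene *dcr-1* (WBGene00000939, chromosome III, 8071916 to 8080274, minus strand) had 71.4, 90.9, 107 and 99.0 normalized reads under *anc-1* RNAi and 86.9, 106, 98.5 and 80.5 under EV in polyQ35-YFP worms, and the log2 fold change was -0.022 (SE 0.19, adjusted p = 0.972). Wild-type worms had 73.9, 79.0 and 61.3 normalized reads under *anc-1* RNAi, against 125, 90.3 and 102 under EV, and these groups did not overlap. The log2 fold change there was -0.55 (SE 0.19, adjusted p = 0.0668), and with the block the adjusted p of limma was 0.0556. These values rest on 48 to 169 reads in a sample.

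The gene *sid-1* (WBGene00004795, chromosome V, 5119970 to 5126916, plus strand), whose product imports dsRNA into cells, had 171, 220.3, 196 and 215 normalized reads under *anc-1* RNAi and 139, 223, 149 and 241 under EV in polyQ35-YFP worms, and the log2 fold change was 0.13 (SE 0.20, adjusted p = 0.824). These EV samples fell into a high pair, replicates 2 and 4, and a low pair, replicates 1 and 3, around the *anc-1* RNAi samples. Wild-type worms had 133, 134 and 108 normalized reads under *anc-1* RNAi, against 143.4, 158.8 and 142.2 under EV. The wild-type groups did not overlap, but the log2 fold change of -0.25 (SE 0.16, adjusted p = 0.347) was not called. In wild-type worms, 3 of the 10 genes (*alg-2*, *dcr-1* and *sid-1*) thus lay wholly lower and 1 (*csr-1*) wholly higher under *anc-1* RNAi, where 15.8% of all genes did so in each direction.

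The dsRNA-binding gene *rde-4* (WBGene00004326, chromosome III, 10217299 to 10218646, minus strand) had 284, 323, 307 and 398 normalized reads under *anc-1* RNAi and 259.7, 359, 282 and 391 under EV in polyQ35-YFP worms. Wild-type worms had 239, 276 and 226 under *anc-1* RNAi and 285, 239 and 274 under EV. Its groups overlapped in both strains, with log2 fold changes of 0.031 (SE 0.17, adjusted p = 0.954) and -0.11 (SE 0.14, adjusted p = 0.666) in polyQ35-YFP and wild-type worms. The primary Argonaute *rde-1* (WBGene00004323, chromosome V, 9987915 to 9991642, minus strand) had 669, 727, 715 and 892 normalized reads under *anc-1* RNAi and 573, 668, 619 and 991 under EV in polyQ35-YFP worms. Wild-type worms had 557, 585 and 472 under *anc-1* RNAi and 504, 563 and 474 under EV. Its groups overlapped as well, with log2 fold changes of 0.10 (SE 0.17, adjusted p = 0.844) and 0.065 (SE 0.12, adjusted p = 0.778) in polyQ35-YFP and wild-type worms. The highest polyQ35-YFP samples of both genes were the number 4 samples of the 2 treatments.

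The secondary-siRNA Argonaute *wago-1* (WBGene00011061, chromosome I, 7235384 to 7238794, plus strand) varied little in wild-type EV samples, with an SD of 12.4 around 396 normalized reads. It had 470.0, 438, 415 and 577 normalized reads under *anc-1* RNAi and 361, 488, 397 and 596 under EV in polyQ35-YFP worms, with a log2 fold change of 0.061 (SE 0.18, adjusted p = 0.910). In wild-type worms it had 373, 439 and 347 under *anc-1* RNAi and 398, 407 and 383 under EV, with a log2 fold change of -0.043 (SE 0.13, adjusted p = 0.863). The nuclear Argonaute *hrde-1* (WBGene00007624, chromosome III, 4172337 to 4176159, minus strand), needed for inherited silencing, had 8482, 8314, 8559 and 9575 normalized reads under *anc-1* RNAi and 5849, 8498, 6427 and 10134 under EV in polyQ35-YFP worms, with a log2 fold change of 0.21 (SE 0.17, adjusted p = 0.618). In wild-type worms *hrde-1* had 6338, 6960.3 and 5703 under *anc-1* RNAi and 7008, 6350.1 and 6298 under EV, with a log2 fold change of -0.052 (SE 0.095, adjusted p = 0.771). For both genes, the treatments overlapped in both strains.

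The Piwi gene *prg-1* (WBGene00004178, chromosome I, 7585324 to 7588367, minus strand) had 10800.5, 9802, 12562 and 14442 normalized reads in the polyQ35-YFP samples under *anc-1* RNAi, against 7198, 9830.0, 7677 and 12973 under EV. Replicates 1 and 3 differed most between the treatments and replicate 2 least, and the log2 fold change was 0.36 (SE 0.19, adjusted p = 0.385). Without EV replicate 4 it was 0.53 (limma, adjusted p = 0.0444), and without both number 4 samples 0.43 (adjusted p = 0.0823). In wild-type worms *prg-1* had 7636, 8451 and 7374 normalized reads under *anc-1* RNAi and 7718, 7089 and 6702 under EV, with a log2 fold change of 0.13 (SE 0.091, adjusted p = 0.407). The near copy *prg-2* could share reads with *prg-1*, and the coding gene D2030.12 lies on its opposite strand, so its value is uncertain to that degree.

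In polyQ35-YFP worms, pairs 1 and 3 had higher ratios than pairs 2 and 4 for *csr-1*, *prg-1*, *hrde-1*, *wago-1*, *sid-1*, *rde-1* and *rde-4*. The germline level showed the same split. The share of all genes with this split was not counted, so it cannot be read as particular to these genes. Same-number pairs 1 and 3, in which the germline geometric mean was higher under *anc-1* RNAi, had log2 ratios of 0.85 and 0.80 for *csr-1*, 0.59 and 0.71 for *prg-1*, 0.54 and 0.41 for *hrde-1* and 0.30 and 0.39 for *sid-1*. Pairs 2 and 4, in which the germline mean was lower under *anc-1* RNAi, had ratios between −0.17 and 0.15 for these 4 genes and for *wago-1*, *rde-1* and *rde-4*. The gene *alg-2* did not follow this split, with pair ratios of −0.34, −0.53, −1.06 and −0.42 in polyQ35-YFP pairs 1 to 4, nor did *alg-1* (−0.45, −0.63, −0.45 and −0.31) or *dcr-1* (−0.28, −0.22, 0.11 and 0.30). With all values divided by the germline mean of their sample, log2 fold changes in polyQ35-YFP worms were 0.27 for *csr-1*, 0.21 for *prg-1*, 0.053 for *hrde-1*, -0.028 for *sid-1*, -0.61 for *alg-1* and -0.74 for *alg-2*, and limma called 0 of the 10 genes, where it called 0.0986% of all genes. In wild-type worms the germline mean was 357, 398 and 351 under *anc-1* RNAi and 381, 371 and 347 under EV. Dividing by it could thus shift fold changes only little there. With 10.7% of all genes called, *alg-2* kept its wild-type call under this scaling (limma, adjusted p = 0.0160). The wild-type log2 fold change of *csr-1* was 0.34 (adjusted p = 0.0695). With so small a shift, these wild-type values do not test the part of germline amount. The part of germline amount in these differences was not tested. In whole worms a change in germline cell number and a change in RNA per cell cannot be told apart.

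**Figure D4:**
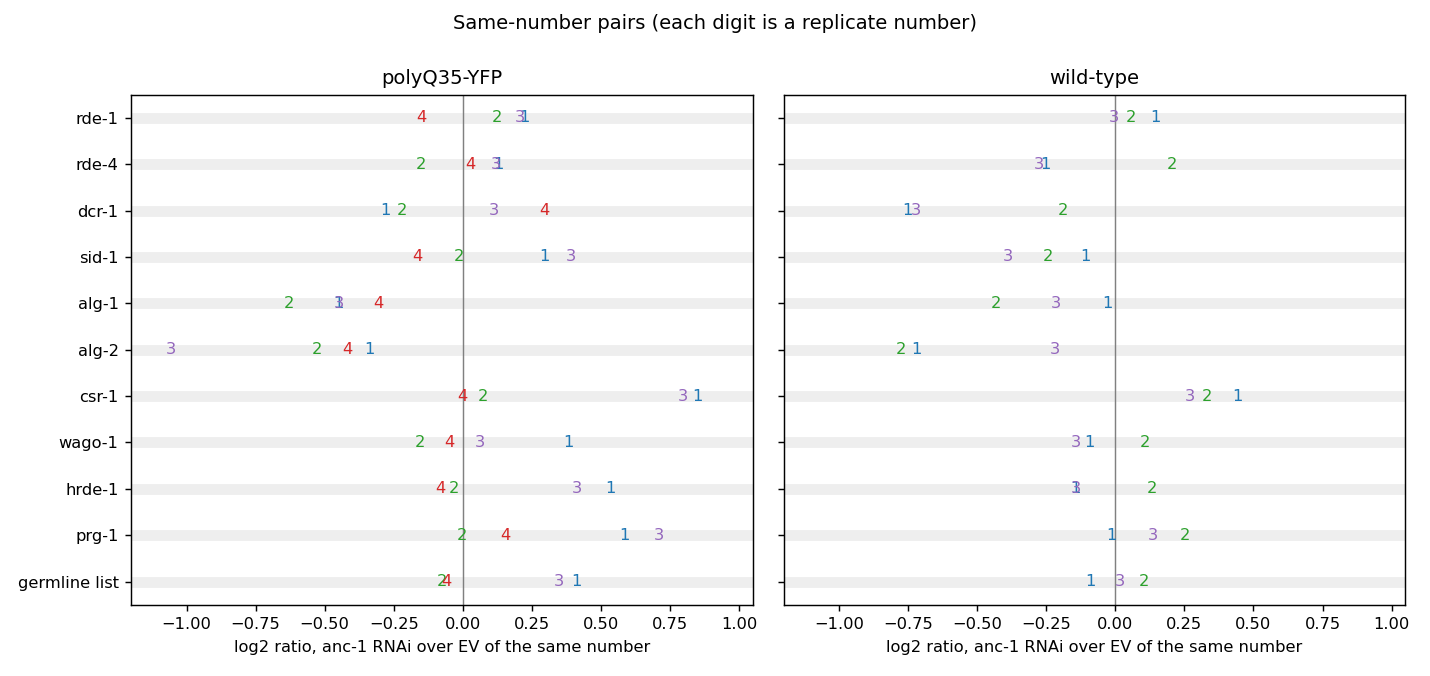
Log2 ratio of *anc-1* RNAi over EV within each same-number pair (horizontal axis) for the 10 genes and for the geometric mean of 20 germline genes, polyQ35-YFP worms left and wild-type worms right, each digit standing for a replicate number. Pairs 1 and 3 of polyQ35-YFP worms lie right of pairs 2 and 4 for *csr-1*, *prg-1*, *hrde-1*, *sid-1* and the germline genes, and all pairs lie left of 0 for *alg-1* and *alg-2* in both strains.

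Other tissue markers moved too. Over all genes limma called 0.772% higher and 1.47% lower in polyQ35-YFP worms, and 7.5% higher and 6.13% lower in wild-type worms. Of 10 body wall muscle genes, 3 rose in polyQ35-YFP worms and 6 in wild-type worms, and of 10 intestine genes 1 and 6 rose. Of the early embryo genes, 4 of 8 measured fell in polyQ35-YFP worms and 4 of 9 fell and 1 rose in wild-type worms, with summed levels of 464 to 544 under *anc-1* RNAi and 964 to 2126 under EV in polyQ35-YFP worms and of 413 to 574 under *anc-1* RNAi and 1441 to 1799 under EV in wild-type worms. Of the 20 germline genes, 0 were called in polyQ35-YFP worms and 2 rose and 1 fell in wild-type worms, and of 12 oocyte genes 0 were called in polyQ35-YFP worms and 2 fell in wild-type worms. All 12 oocyte genes had a log2 fold change below 0 in wild-type worms (median -0.23). There, 7 had a limma unadjusted p below 0.05, against 27.6% of all genes. In polyQ35-YFP worms 8 oocyte genes were above 0 and 4 below. Of the neuron genes 0 of 10 were called in polyQ35-YFP worms and 1 of 9 rose in wild-type worms, and of the hypodermis genes 0 of 10 were called in polyQ35-YFP worms, and 2 of 9 rose and 2 fell in wild-type worms. Sperm genes were measured for 3 of 12 names in polyQ35-YFP worms and 5 in wild-type worms, and 0 were called. For these lists without a call by limma, edgeR also called 0 genes, and DESeq2 called 0 except 2 hypodermis genes (lower in polyQ35-YFP worms). In polyQ35-YFP worms, 2 germline, 3 hypodermis and 0 oocyte, neuron or sperm genes had a limma unadjusted p below 0.05 (15.5% of all genes). The part of these tissue markers in the differences of the RNAi machinery was not tested.

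The response of the 10 genes was set against each other between the strains by a term for strain by treatment (the polyQ35-YFP response minus that of wild type), fitted over the 11751 genes listed in both. Of the 10 genes, limma called 0, with 0 under an unadjusted p of 0.05, and 0 were called by edgeR (background 0.00851%), by DESeq2 (0.017%) and by limma with the block (0.0511%). Over all genes limma called 0.00851% and 3.46% had an unadjusted p below 0.05. The largest difference was that of *dcr-1*, at 0.53 (SE 0.27, unadjusted p = 0.0647 and adjusted p = 0.999, limma), from a log2 fold change of -0.022 in polyQ35-YFP worms against -0.55 in wild-type worms. It was followed by *sid-1* at 0.37 (SE 0.27) and *hrde-1* at 0.26 (SE 0.22). The difference was smallest for *alg-2*, at -0.015 (SE 0.26). The standard errors of the 10 differences ran from 0.22 to 0.32 on the log2 scale.

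Beyond the 10 genes, 91 genes of small RNA pathways were read in 7 lists, and 87 of them were measured. In polyQ35-YFP worms limma called 0 higher and 1 lower (background 0.772% higher and 1.47% lower). In wild-type worms it called 2 higher and 9 lower (background 7.5% higher and 6.13% lower), and the median log2 fold change was −0.13 there, with 26 genes above 0 and 61 below. In polyQ35-YFP worms the median was −0.019, with 42 above 0 and 45 below. Over all genes, 6568 were above 0 and 5605 below in polyQ35-YFP worms, and 6081 above and 5980 below in wild-type worms. With the block, 1 was higher and 4 were lower in polyQ35-YFP worms (background 3.83% higher and 4.3% lower). In wild-type worms 2 were higher and 13 lower with the block (background 8.81% higher and 7.44% lower). The block added *wago-2* (higher), *sid-3*, *ain-1* and C35D10.13 (lower) in polyQ35-YFP worms and *pir-1*, *rrf-1*, *mut-15* and *nhl-2* (lower) in wild-type worms, names chosen after their values were seen.

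Among the other Argonautes, *nrde-3*, which carries secondary siRNAs into the nuclei of somatic cells, fell in both strains. It had 302, 369, 262 and 286 normalized reads under *anc-1* RNAi, against 755, 551, 713 and 413 under EV in polyQ35-YFP worms, and 316, 353 and 371 under *anc-1* RNAi, against 508, 636 and 559 under EV in wild-type worms. All *anc-1* RNAi samples were below all EV samples of their strain. The log2 fold changes were -0.97 (SE 0.19, adjusted p = 0.0192) and -0.71 (SE 0.13, adjusted p = 0.000903) in polyQ35-YFP and wild-type worms, and their difference of -0.26 (SE 0.26) was not called (limma). The wild-type call held with any 1 sample left out, while the polyQ35-YFP call was lost in 4 of 8 such fits, without *anc-1* RNAi replicates 1 or 3 or EV replicates 2 or 3 (limma, adjusted p up to 0.0734), and its adjusted p was 0.268 after scaling to the germline genes. The Argonaute *ergo-1*, which binds endogenous primary siRNAs, fell in wild-type worms, with 1589.9, 1800.5 and 1725 normalized reads under *anc-1* RNAi against 2426, 2558 and 2378 under EV and a log2 fold change of -0.53 (SE 0.094, adjusted p = 0.000959). In polyQ35-YFP worms its log2 fold change was -0.26 (SE 0.14, adjusted p = 0.403). The secondary Argonaute *sago-2* had the highest fold changes of its list, 0.97 in polyQ35-YFP and 0.66 in wild-type worms, from 3.03 to 15.2 normalized reads in a sample, and was not called.

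In the list of primary siRNA and enhanced-RNAi (ERI) factors (16 genes measured), *adr-1*, an RNA-editing family gene that binds dsRNA, fell in wild-type worms with a log2 fold change of -0.56 (SE 0.16, adjusted p = 0.0307), and had -0.49 (SE 0.17, adjusted p = 0.164) in polyQ35-YFP worms. By the mean of the strains, the highest fold change of that list was that of *eri-5*, with 0.13 in polyQ35-YFP and 0.24 in wild-type worms, which was not called. Of 16 amplification and mutator genes, *rsd-6*, needed for RNAi of germline genes, fell in wild-type worms with a log2 fold change of -0.33 (SE 0.10, adjusted p = 0.0354), and had -0.22 (SE 0.14, adjusted p = 0.491) in polyQ35-YFP worms. The mutator scaffold gene *mut-16* had -0.41 in polyQ35-YFP and -0.28 in wild-type worms and the polymerase gene *rrf-2*, at 1.16 to 18.2 normalized reads in a sample, had 0.63 and 0.87 in the same strains, both uncalled. Of 11 nuclear RNAi genes, limma, edgeR and DESeq2 each called 0 in either strain. By unadjusted p (limma), 1 of 11 lay under 0.05 in polyQ35-YFP worms (15.5% of all genes) and 0 of 11 in wild-type worms (27.6%). Their fold changes ran from −0.38 to 0.22 in polyQ35-YFP worms, with *emb-4* lowest, and from −0.31 to 0.0098 in wild-type worms, and T10B11.7 (*hrde-4*) had the highest mean over both strains.

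Of 5 genes of systemic RNAi, *sid-2*, the gut-lumen receptor for dsRNA, rose in wild-type worms, with 84.1, 87.0 and 120.0 normalized reads under *anc-1* RNAi against 55.1, 35.8 and 57.7 under EV and a log2 fold change of 0.97 (SE 0.23, adjusted p = 0.00842). In polyQ35-YFP worms it had 89.3, 90.9, 121 and 69.5 under *anc-1* RNAi, against 88.1, 52.0, 55.3 and 61.2 under EV, with a log2 fold change of 0.53 (SE 0.23, adjusted p = 0.290). The SID-1 relative *chup-1* fell in wild-type worms with a log2 fold change of -0.47 (SE 0.15, adjusted p = 0.0397) and had -0.18 (SE 0.14, adjusted p = 0.621) in polyQ35-YFP worms.

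Among 12 protein-coding genes of the microRNA list, *pash-1*, the partner of Drosha, fell in wild-type worms. Its log2 fold change was -0.43 (SE 0.11, adjusted p = 0.0137), and the deadenylase gene *ccf-1* fell there too, at -0.33 (SE 0.093, adjusted p = 0.0243). The gene *pab-1*, which encodes poly(A)-binding protein, rose there, with a log2 fold change of 0.26 (SE 0.084, adjusted p = 0.0476). Their log2 fold changes in polyQ35-YFP worms were -0.039, -0.14 and 0.35, uncalled. The gene *ain-1*, whose product binds ALG-1 in the silencing complex, had -0.51 (SE 0.20, adjusted p = 0.228) in polyQ35-YFP worms, called with the block (limma, adjusted p = 0.0134), and -0.15 (SE 0.13, adjusted p = 0.510) in wild-type worms. In the piRNA list (16 genes), C35D10.13 (*tost-1*) and F35G12.11 (*erh-2*) fell in wild-type worms. Their log2 fold changes there were -0.51 (SE 0.10, adjusted p = 0.00264) and -0.51 (SE 0.15, adjusted p = 0.0335). In polyQ35-YFP worms they had -0.37 and -0.31, the first called with the block (limma, adjusted p = 0.0417), and *tofu-7*, highest of the list by its mean over both strains, had 0.42 in polyQ35-YFP and 0.22 in wild-type worms. Of the 12 RNAi machinery and pathway genes called in wild-type worms, 3 (*nrde-3*, *ergo-1* and C35D10.13) were called in every fit that left out 1 sample, and 9 lost the call in at least 1. Over all 15 alternatives in wild-type worms, each of these 3 genes was called in 14. The call was lost in all 6 such fits for *pab-1*, in 5 for *chup-1*, in 4 for *adr-1* and *rsd-6*, in 3 for *ccf-1* and F35G12.11, in 2 for *sid-2* and in 1 for *alg-2* and *pash-1*. The largest adjusted p (limma) was then 0.165 for *pab-1* and 0.110 for *ccf-1* (without *anc-1* RNAi replicate 1), 0.151 for *chup-1* and 0.148 for *rsd-6* (without *anc-1* RNAi replicate 1), 0.155 for F35G12.11 (without *anc-1* RNAi replicate 3), 0.149 for *adr-1* and 0.0593 for *sid-2* (without EV replicate 2) and 0.0601 for *pash-1* (without EV replicate 3). Coding genes lie opposite *ergo-1*, *rsd-6*, *sid-2*, *sago-2*, *eri-5* and *emb-4*, so their values are uncertain if strand was not used in counting.

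**Figure D5:**
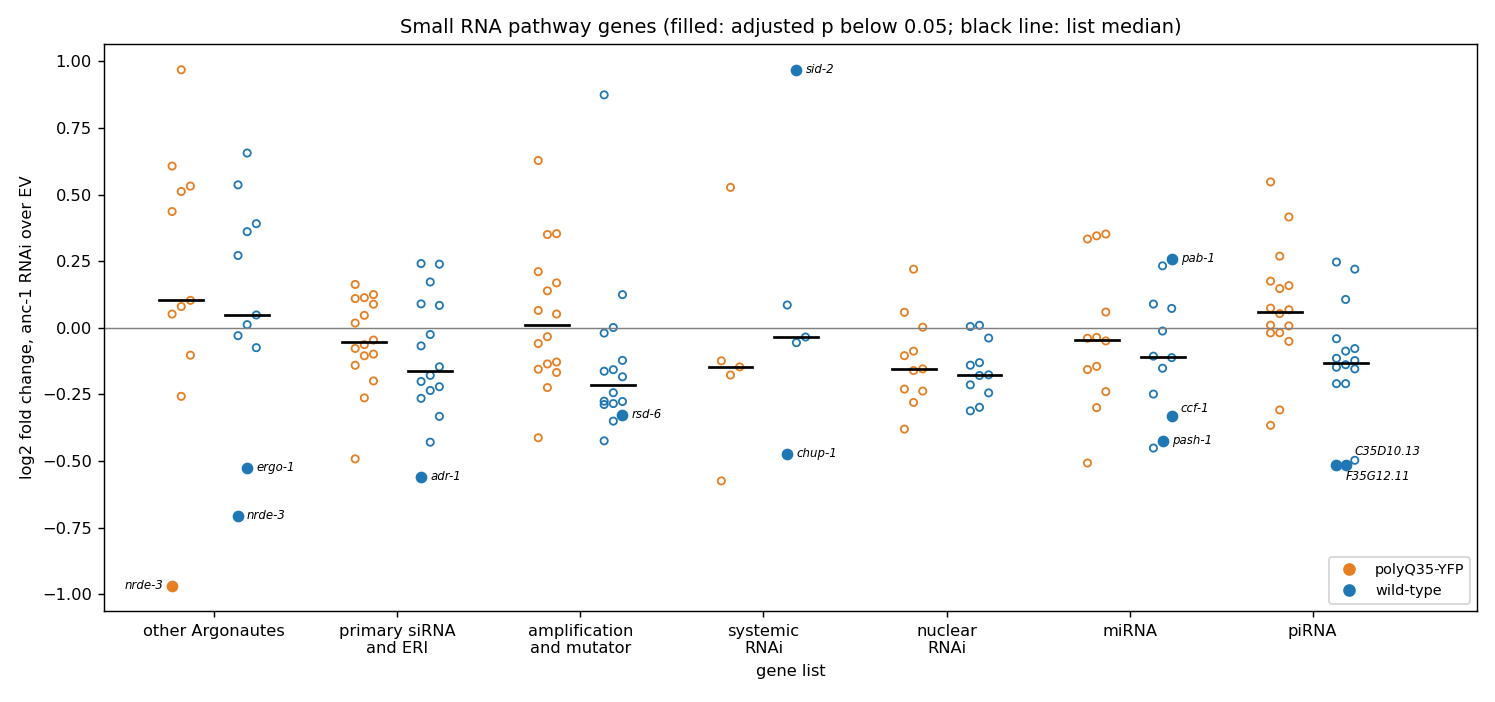
Log2 fold change of *anc-1* RNAi over EV (vertical axis) for the measured genes of 7 small RNA pathway lists (horizontal axis), polyQ35-YFP worms in orange left of wild-type worms in blue, with filled and named points called at an adjusted p below 0.05 and black lines at list medians. Only *nrde-3* is filled in polyQ35-YFP worms, and 11 points are filled in wild-type worms, 9 of them below 0.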

How the data were processed

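The authors trimmed CEL-Seq2 reads (cutadapt 1.12), aligned them to WBcel235 (TopHat2 2.1.1) and counted them on protein-coding genes (HTSeq 0.6.1), ignoring molecular identifiers. They dropped genes with a mean count under 2 and deposited, per strain, signal values that are counts divided by DESeq2 1.22.2 size factors. Their deposited fold changes, standard errors, Wald scores and p-values were not used here. Whole reads were recovered for 100% of values (within 0.01).

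Values were tested in limma 3.58.1 (R 4.3.3) on log2(value + 1), with a variance trend and no block, adjusted over all genes of a strain. The design foresaw counts or normalized values, and the files hold the second. Alternatives were edgeR 4.0.16 and DESeq2 1.42.0 on recovered reads, pseudocounts of 0.5 and 5, a mean of 10 or more, library totals, the replicate block and each sample left out. Variance without a trend, dropping both number 4 samples and scaling to germline genes were chosen after seeing the data. The fits were also run on simulated counts drawn independently for each sample. These counts held no replicate pairing and no split among EV samples, so they do not bear on calls that depend on either. The p-values measure the spread between samples, described as independent repeats.

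The pairing by number comes from the series' design. Deviations of same-numbered samples from their group means correlated at 0.215, 0.0949, 0.122 and 0.570 in polyQ35-YFP pairs 1 to 4 (9566 genes) and at 0.0491, 0.0806 and 0.0740 in wild-type pairs 1 to 3 (9430 genes), against −0.469 to 0.271 and −0.108 to 0.0353 between other numbers.

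The 10 genes and the pathway and marker lists were chosen with earlier results of these data known. Named pathway genes were those called without the block and the highest and lowest of each list by mean log2 fold change over both strains. Of the listed names, 10 could not be matched to a gene under that name, so the lists may lack some genes. The genes *alg-3*, *alg-4*, *wago-5* and *wago-10* were not among the genes analysed. Exon lengths came from Ensembl release 115.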

Additional observations from a re-analysis of the deposited data

Results flagged for a closer look

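In groups of 4 samples, 1 sample stood apart from the other 3 by Dixon's criterion (gap to the nearest sample over the whole range) in 3 of the 60 groups examined, near the 1 in 20 (5%) that chance flags. In polyQ35-YFP *anc-1* RNAi samples, replicate 3 of *alg-1* had 251 normalized reads, above the others. Replicate 4 of *ain-1* had 451 normalized reads, below the others, and replicate 4 of *ccf-1* had 2730.1, above the others.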

How the results depend on the processing

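Leaving samples out one at a time gave 0 to 3 called genes of the 10 in polyQ35-YFP worms and 0 to 2 in wild-type worms, against 0 and 1 with all samples. Over all genes, limma called 0.493% to 6.9% and 8.14% to 12.8% in these fits. The count in wild-type worms was 2 (*alg-2* and *csr-1*) in edgeR, in DESeq2, with a mean of 10 or more (17.8% of all genes called), with library totals (13.2%) and with the replicate block, and 0 without the variance trend (4.01%). In polyQ35-YFP worms it was 1 (*alg-2*) in DESeq2 and 2 (*alg-1* and *alg-2*) with the block, and the 3 came without EV replicate 4 (*alg-2*, *csr-1* and *prg-1*). Between strains it stayed at 0 in all 24 alternatives, which called at most 0.111% of all genes, and the block changed no call there. Over all genes, 466 rose and 524 fell with the block in polyQ35-YFP worms, against 94 and 179 without it, and 305 and 535 without EV replicate 4. Scaling to germline genes gave a median log2 fold change of all genes of −0.12 in polyQ35-YFP worms, against 0.034 without it.

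No reported value whose sign turned was called in the comparison concerned. In polyQ35-YFP worms, scaling to germline genes gave −0.055 for *rde-1*, −0.12 for *rde-4*, −0.095 for *wago-1*, −0.028 for *sid-1* and −0.030 for *eri-5*, library totals gave −0.017 for *rde-4*, and leaving out both number 4 samples gave 0.061 for *pash-1*. For the difference between strains, *rde-1* was at −0.023 in edgeR, −0.0094 in DESeq2, −0.022 with library totals and −0.11 with germline scaling, *csr-1* was at −0.038, −0.023 and −0.064 in edgeR, in DESeq2 and with germline scaling, and germline scaling gave −0.0065 for *rde-4* and −0.042 for *wago-1*. Leaving out 1 sample gave ranges across 0 in polyQ35-YFP worms for *rde-4* (−0.067 to 0.13), *dcr-1* (−0.098 to 0.093), *wago-1* (−0.048 to 0.19), *sid-1* (−0.0040 to 0.26), *pash-1* (−0.15 to 0.12) and T10B11.7 (−0.30 to 0.48), in wild-type worms for *wago-1* (−0.14 to 0.030), *hrde-1* (−0.12 to 0.021) and T10B11.7 (−0.61 to 0.090), and between strains for *rde-1* (−0.058 to 0.21), *alg-2* (−0.15 to 0.16), *csr-1* (−0.099 to 0.33) and *wago-1* (−0.0047 to 0.24). The cause was not tested. Of the named genes, *rrf-2* (1 to 16 reads in a sample), T10B11.7 (2 to 19) and *sago-2* (4 to 16) rested on the fewest reads.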
